A study of Mus musculus with 16 samples.

Results

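The circadian clock genes described here are Arntl, Clock, Npas2, Per1, Per2, Per3, Cry1, Nr1d1, Nr1d2 and Dbp, 10 of the 35275 genes in the deposited table of liver RNA levels. They were picked out of the table by gene symbol, from a list of core clock genes made with earlier results of these data known. The mice carried either a normal Zfp36l1 gene (WT) or a deletion of it limited to the liver (LKO), and each genotype received either a control diet or a diet with ethanol. This gave 4 groups of 4 libraries of total liver RNA, called here WT control, WT ethanol, LKO control and LKO ethanol, with libraries numbered 1 to 4 in the order of the records. Strain, age, sex, the driver of the deletion, the composition and length of the diets, and the hour at which livers were collected are not given in the sources used here. The titles carry a different number for each library, and the labels say nothing further on animals, cages, litters or batches, so p-values measure the spread between these libraries, which may in part be technical.

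The mammalian clock is a transcriptional feedback loop. ARNTL (BMAL1) pairs with CLOCK, or with its relative NPAS2, and the pair activates genes that carry an E-box, among them the Per and Cry genes, Nr1d1, Nr1d2 and Dbp. PER and CRY proteins feed back to inhibit the pair, while NR1D1 and NR1D2 (REV-ERB alpha and beta) repress Arntl, Clock and Npas2 through ROR/REV-ERB elements. DBP is an output activator that binds D-boxes, and its transcript is one of the most strongly cycling ones in liver. Transcripts of the ARNTL arm and of the DBP and PER arm peak at different times of day, and the hepatic clock also follows feeding. ZFP36L1, the protein of the deleted gene, binds AU-rich elements in 3′ untranslated regions and promotes decay of the RNA.

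Levels are FPKM, fragments counted per unit of gene length and of sequencing depth, so they can be compared between genes per length. Differences are in log2(FPKM + 1) and come from limma, fitted on all 16 libraries and all 11298 genes that reached 1 FPKM in at least 4 libraries. A gene was called at a Benjamini-Hochberg adjusted p under 0.05 over those genes. Of the 10 clock genes, 9 passed this filter. Npas2 did not, with 0.00982 to 0.642 FPKM and 1 to 61 reads per library.

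The 15 libraries other than WT ethanol library 2 held 19069828 to 24768501 reads, had 3.64% to 6.97% of reads on mitochondrial genes and correlated with each other at Spearman 0.923 to 0.949. WT ethanol library 2 stood apart, with 9884479 reads, 22.5% mitochondrial reads and Spearman 0.758 to 0.796 with the others. Within groups, the other 15 libraries also fell on both sides of the first principal component, computed without the clock genes, which carried 40% of the variance: libraries 1 and 2 of each group lay on one side and libraries 3 and 4 on the other. The deleted gene matched its labels, since Zfp36l1 was at 9.30 to 25.5 FPKM in WT and 0.572 to 1.76 FPKM in LKO livers. Hepatocyte markers summed to 41590 to 71880 FPKM in every library, a sum carried by Alb, Apoa1 and Ttr. In WT ethanol library 2 the hepatocyte genes Cps1 and Hnf4a were at 36.5 and 22.2 FPKM, below all other libraries, at 339.3 and 94.01 FPKM or more. These are bulk liver samples, in which fewer cells of a type and less RNA per cell cannot be told apart.

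The regulatory sequences through which the loop runs were read from RefSeq promoters on GRCm38.p6, because they are the sites through which the members act on one another. Entries were found for 9 of the 10 members, all but Per2, and the 250 bases before each start were searched on both strands for the E-box CACGTG, the D-box written as TTATGTAA or TTACGTAA, and the ROR/REV-ERB element ANTAGGTCA. Of all RefSeq promoters in the table, 6.02% held the E-box, 0.931% the D-box and 0.548% the ROR/REV-ERB element. The D-box was found in Per3 only, at 2 positions, 205 and 158 bases before the start, and the E-box in 1 promoter of Per1, 166 bases before the start, and in Cry1, 60 bases before it. None of the 3 motifs was in this window of Arntl, Clock, Npas2, Nr1d1, Nr1d2 or Dbp, which says only that these letters are not there. The promoters that hold a match are shown 5′ to 3′ on the gene's strand, with the motif in capitals.
Per3, chr4:151044666-151044915, minus strand: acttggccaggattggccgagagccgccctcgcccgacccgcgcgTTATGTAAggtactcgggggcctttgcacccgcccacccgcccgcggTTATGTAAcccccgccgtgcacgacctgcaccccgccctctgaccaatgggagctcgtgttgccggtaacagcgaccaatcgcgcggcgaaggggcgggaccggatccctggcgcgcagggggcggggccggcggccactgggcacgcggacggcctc
Per1, chr11:69098699-69098948, plus strand: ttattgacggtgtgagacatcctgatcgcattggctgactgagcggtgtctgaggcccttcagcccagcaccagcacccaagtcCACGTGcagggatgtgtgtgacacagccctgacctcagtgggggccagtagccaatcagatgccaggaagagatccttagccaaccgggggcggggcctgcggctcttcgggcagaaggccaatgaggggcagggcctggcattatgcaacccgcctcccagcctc
Cry1, chr10:85185055-85185304, minus strand: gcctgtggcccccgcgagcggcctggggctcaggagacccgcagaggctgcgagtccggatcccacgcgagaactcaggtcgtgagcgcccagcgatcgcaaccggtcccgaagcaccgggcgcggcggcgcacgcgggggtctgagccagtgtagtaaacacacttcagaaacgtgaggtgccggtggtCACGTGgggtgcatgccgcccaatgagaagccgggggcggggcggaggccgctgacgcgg

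The AU-rich heptamer TATTTAT, of the kind that ZFP36 family proteins bind, was searched on the transcript strand in the longest annotated 3′ untranslated region of each gene (GENCODE M21). It was present in 3 of the 10 clock genes, Clock, Nr1d1 and Nr1d2, against 29.1% of the 10529 kept genes with such a region. Each site is shown with 10 bases on either side and the heptamer in capitals, and the coordinates are those of the heptamer on GRCm38. A match is a description of the sequence, not evidence of binding.
Clock, chr5:76215763-76215769, minus strand: atagttggaaTATTTATgtaaatggtt
Nr1d1, chr11:98768114-98768120, minus strand: accagaatctTATTTATattgttataa
Nr1d2, chr14:18206629-18206635, minus strand: ctgagatgttTATTTATatgtgtatac

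On ethanol, taken as the mean response of both genotypes, Dbp and Per3 fell, and none of the other 7 clock genes in the test was called. Npas2, which was not in it, was called higher in a test on reads given below. It passed the filter of that test through the ethanol libraries, so the call is not independent support. Dbp dropped by 2.43 on the log2 scale (SE 0.58, limma adjusted p = 0.0161) and Per3 dropped by 1.29 (SE 0.35, limma adjusted p = 0.0313), each over 8 ethanol and 8 control libraries. These are 2 of 9 members tested, against 7.78% of all genes called in this comparison and 3.19% called lower. Clock (0.59, SE 0.19, adjusted p = 0.0664) and Nr1d2 (−0.95, SE 0.34, adjusted p = 0.103) had unadjusted p-values under 0.05, as did 21.6% of all genes, but were not called by limma. The median difference of the 9 members was −0.61, against 0.02 for all genes tested. The range of the members was wide, from −2.43 in Dbp to 0.59 in Clock.

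**Figure D1:**
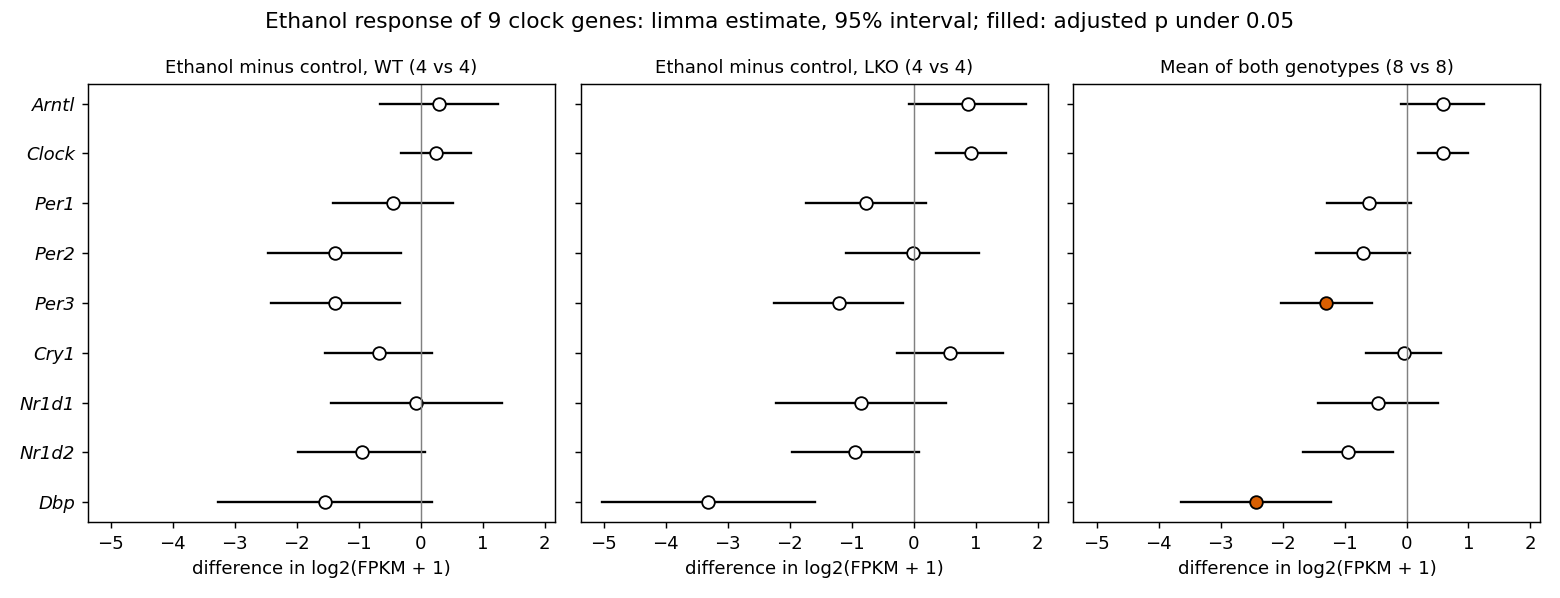
Ethanol response of the 9 clock genes that passed the filter, as the difference in log2(FPKM + 1) with its 95% interval from limma, in WT (4 against 4 libraries), in LKO (4 against 4) and as the mean of both genotypes. Filled points passed the adjusted threshold of 0.05, which only Per3 (−1.29) and Dbp (−2.43) did, and only for the mean of both genotypes.

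Arntl (ENSMUSG00000055116, chr7:113207465-113314126, plus strand) encodes the obligate activating subunit. In WT livers it measured 0.379, 0.289, 7.19 and 0.347 FPKM in control libraries 1 to 4, and 2.16, 0.696, 2.198 and 1.57 FPKM in ethanol libraries 1 to 4. In LKO livers it measured 0.303, 0.201, 0.283 and 0.432 FPKM on the control diet and 1.302, 0.849, 0.997 and 2.78 FPKM on ethanol. All ethanol libraries lay above 7 of the 8 control libraries, and the exception was WT control library 3, the highest of all. The difference was 0.29 (SE 0.45) in WT, 0.87 (SE 0.45) in LKO and 0.58 (SE 0.32, limma adjusted p = 0.315) for both. In WT it was 0.80 among libraries 1 and 2 (1.25 without WT ethanol library 2) and −0.21 among libraries 3 and 4. Without WT control library 3, which was singled out after its clock gene values had been seen, the WT difference was 0.95 (limma adjusted p = 0.0531) and the mean of both genotypes was 0.91 (SE 0.17, limma adjusted p = 0.00489). In that fit Arntl passed the filter of 1 FPKM only through ethanol libraries, as the remaining controls reached at most 0.432 FPKM. The call is therefore not independent support. The antisense gene Gm45355 overlaps Arntl, and the strand setting of the counting is not given in the sources used here.

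Clock (ENSMUSG00000029238, chr5:76209868-76304792, minus strand) encodes the usual partner of ARNTL. WT control libraries measured 3.20, 3.10, 6.16 and 2.70 FPKM, and WT ethanol libraries 6.14, 2.06, 5.71 and 5.23 FPKM. The values were 1.88, 1.97, 2.52 and 1.72 FPKM in LKO control and 5.93, 4.10, 4.72 and 4.31 FPKM in LKO ethanol livers. The LKO groups did not overlap, whereas in WT the high control library 3 and the low ethanol library 2 made the groups overlap. The ethanol difference in LKO was 0.93 (SE 0.27, limma adjusted p = 0.173), and it was 0.25 (SE 0.27) in WT, where it became 0.53 without WT ethanol library 2 and 0.46 without WT control library 3, neither called. Leaving out WT ethanol library 2 gave limma adjusted p = 0.0163 for the same LKO difference, and 0.73 (SE 0.14, adjusted p = 0.0023) for both genotypes, in a fit that called 20.5% of all genes for both genotypes and 3.67% in LKO.

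Npas2 (ENSMUSG00000026077, chr1:39193731-39363236, plus strand) encodes a CLOCK relative that can take its place beside ARNTL. Its level was 0.0124, 0.0198, 0.116 and 0.0227 FPKM in WT control and 0.364, 0.239, 0.165 and 0.296 FPKM in WT ethanol livers, which rests on 1 to 12 and 10 to 30 reads. In LKO it was 0.0104, 0.00982, 0.0680 and 0.0296 FPKM on the control diet and 0.243, 0.157, 0.642 and 0.0954 FPKM on ethanol, from 1 to 7 and 10 to 61 reads. In both genotypes every ethanol library exceeded every control library of that genotype, although the lowest LKO ethanol library lay below WT control library 3. These levels are too low for the log2(FPKM + 1) scale, so reads were worked out from the table and tested with voom, an alternative added after the data had been seen. By voom, Npas2 was 2.93 higher on the log2 scale on ethanol over both genotypes (SE 0.55, limma-voom adjusted p = 0.00434, 8 against 8 libraries). The same fit gave 2.84 in WT (adjusted p = 0.0577) and 3.02 in LKO (adjusted p = 0.13). It called 3 of 10 clock genes for both genotypes, Dbp, Per3 and Npas2, against 6.54% of 14412 genes tested. Npas2 met the filter of this fit, 10 reads in at least 4 libraries, through the ethanol libraries. Of the controls only WT control library 3, at 12 reads, reached 10 reads. Npas2 was thus in the test because of the libraries where it was high, and its call is not independent support.

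**Figure D2:**
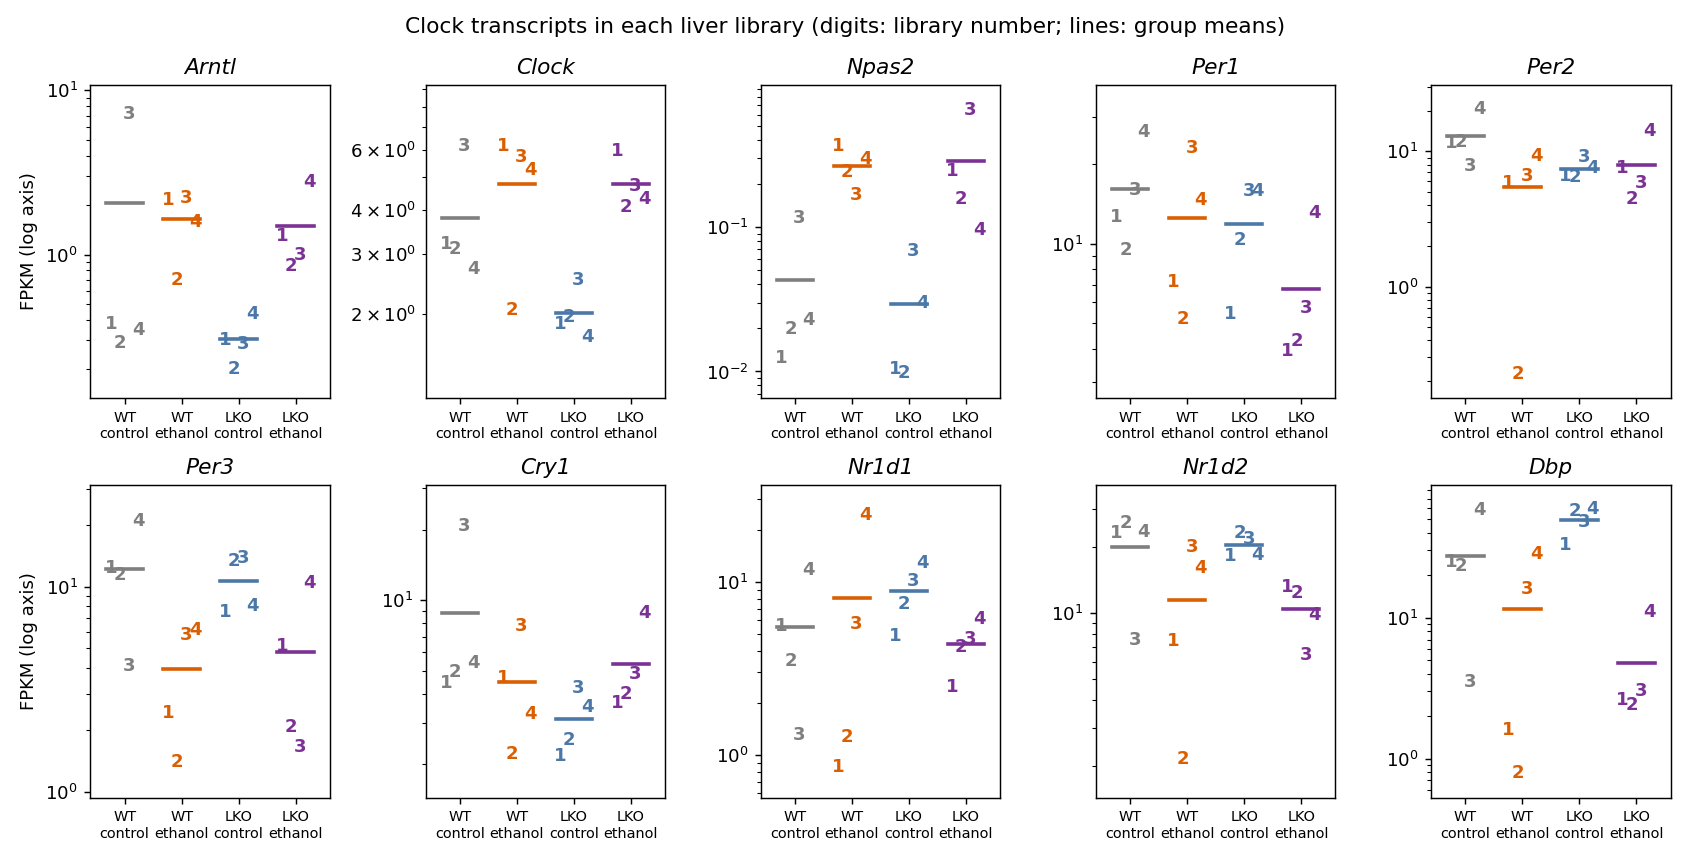
FPKM of the 10 clock genes in each of the 16 libraries (log axis), by group, with each digit marking the library of that number and each line a group mean. Library 3 of WT control lies highest of its group for Arntl (7.19) and Cry1 (20.7) and lowest for Dbp (3.51), and WT ethanol library 2 lies lowest for Per2 (0.225).

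The Period genes encode inhibitors of the ARNTL pair. Per1 (ENSMUSG00000020893, chr11:69095217-69109960, plus strand) measured 12.6, 9.45, 15.9 and 26.5 FPKM in WT control and 7.17, 5.20, 23.0 and 14.7 FPKM in WT ethanol livers. In LKO, Per1 measured 5.44, 10.3, 15.8 and 15.8 FPKM on the control diet and 3.92, 4.30, 5.69 and 13.1 FPKM on ethanol. The diets overlapped in both genotypes, and the difference over both was −0.61 (SE 0.32, limma adjusted p = 0.297). With a term for the side of the principal component and without WT ethanol library 2 it was called (−0.54, SE 0.18, limma adjusted p = 0.0338), in a fit that called 3652 of 11170 genes.

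Per2 (ENSMUSG00000055866, chr1:91415982-91459324, minus strand) measured 11.6, 11.7, 7.75 and 20.7 FPKM in WT control and 5.80, 0.225, 6.59 and 9.22 FPKM in WT ethanol livers. LKO control livers measured 6.59, 6.49, 9.17 and 7.59 FPKM and LKO ethanol livers 7.48, 4.44, 5.80 and 14.2 FPKM. In WT only ethanol library 4 and control library 3 broke the separation of the diets, and in LKO the diets overlapped broadly. The difference was −1.39 in WT (SE 0.51, limma adjusted p = 0.134) and −0.01 in LKO (SE 0.51), and the difference between these responses, 1.37 (SE 0.72), was not called either (limma adjusted p = 0.927). Without WT ethanol library 2 the WT difference was −0.71 and the difference between responses 0.69, neither called.

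Per3 (ENSMUSG00000028957, chr4:151003652-151044665, minus strand), whose promoter carries both D-boxes shown above, was one of the called genes. WT control livers measured 12.3, 11.4, 4.08 and 20.95 FPKM and WT ethanol livers 2.41, 1.399, 5.83 and 6.17 FPKM. LKO control livers measured 7.49, 13.3, 13.8 and 8.0 FPKM and LKO ethanol livers 5.14, 2.06, 1.64 and 10.4 FPKM. Of the ethanol libraries, 7 of 8 lay below 7 of the 8 control libraries, and the exceptions were LKO ethanol library 4 and WT control library 3. The response was −1.38 in WT (SE 0.49, limma adjusted p = 0.127) and −1.21 in LKO (SE 0.49, limma adjusted p = 0.434), so the call rests on both genotypes together. It was lost without any one of 7 libraries (WT control 1, 2 or 4, LKO control 2 or 3, LKO ethanol 2 or 3), where limma adjusted p reached at most 0.0784 and the difference stayed between −1.28 and −1.14. Among libraries 1 and 2 of each group the difference was −1.75, and among libraries 3 and 4 it was −0.83. Per3 lies inside the annotated span of Camta1 on the same strand, so reads of that gene's introns cannot be told apart from its own by position.

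Cry1 (ENSMUSG00000020038, chr10:85131700-85185064, minus strand) encodes a strong repressor of the ARNTL pair. It measured 4.42, 4.92, 20.7 and 5.38 FPKM in WT control and 4.67, 2.21, 7.73 and 3.28 FPKM in WT ethanol livers. In LKO it measured 2.16, 2.53, 4.24 and 3.52 FPKM on the control diet and 3.64, 3.98, 4.85 and 8.85 FPKM on ethanol. WT control library 3 was the highest of all 16 libraries, as it was for Arntl, and the other values overlapped between diets in both genotypes. The difference was −0.68 in WT (SE 0.41), 0.58 in LKO (SE 0.41) and −0.05 over both (SE 0.29, limma adjusted p = 0.952), and the WT difference was −0.21 without WT control library 3.

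Nr1d1 and Nr1d2 encode the repressors of Arntl. Nr1d1 (ENSMUSG00000020889, chr11:98767932-98775333, minus strand) measured 5.59, 3.48, 1.297 and 11.7 FPKM in WT control and 0.850, 1.26, 5.69 and 24.3 FPKM in WT ethanol livers. In LKO it measured 4.89, 7.41, 10.1 and 12.9 FPKM on the control diet and 2.47, 4.20, 4.68 and 6.08 FPKM on ethanol. WT ethanol spanned the widest range, from the lowest to the highest value of all 16 libraries, and its lowest values were in libraries 1 and 2. The difference over both genotypes was −0.46 (SE 0.46, limma adjusted p = 0.626), and it was −1.07 among libraries 1 and 2 and 0.15 among libraries 3 and 4, where WT was at 1.27 and LKO at −0.97. Without 1 library it ranged from −0.84 (WT ethanol 4) to −0.21 (WT ethanol 1). Thra overlaps Nr1d1 on the opposite strand.

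Nr1d2 (ENSMUSG00000021775, chr14:18204054-18239127, minus strand) measured 23.2, 25.8, 7.55 and 23.6 FPKM in WT control and 7.47, 2.15, 20.1 and 16.2 FPKM in WT ethanol livers. In LKO it measured 18.2, 23.3, 21.9 and 18.5 FPKM on the control diet and 13.2, 12.4, 6.41 and 9.79 FPKM on ethanol. The LKO groups did not overlap, and in WT only control library 3 fell within the ethanol range. The difference was −0.96 in WT and −0.94 in LKO (SE 0.49 each), with limma adjusted p of 0.29 and 0.616. The WT difference was −0.40 without WT ethanol library 2 and −1.34 without WT control library 3, neither called, and it was −2.30 among libraries 1 and 2 and 0.39 among libraries 3 and 4.

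Dbp (ENSMUSG00000059824, chr7:45705088-45710203, plus strand), the output activator, had the largest difference of the 9 members tested. WT control livers measured 24.8, 23.4, 3.51 and 57.7 FPKM and WT ethanol livers 1.61, 0.791, 15.9 and 28.1 FPKM. LKO control livers measured 33.0, 56.8, 47.9 and 58.6 FPKM and LKO ethanol livers 2.61, 2.41, 3.01 and 10.99 FPKM. In LKO every control library lay far above every ethanol library, and in WT the diets overlapped, with control library 3 below ethanol libraries 3 and 4. The group means were 27.4 ± 22.4 and 11.6 ± 13.02 FPKM in WT, and 49.1 ± 11.7 and 4.76 ± 4.16 FPKM in LKO (SD, n = 4 each, control then ethanol). The response was −1.54 in WT (SE 0.82, limma adjusted p = 0.310) and −3.31 in LKO (SE 0.82, limma adjusted p = 0.0992), and the difference between them, −1.77 (SE 1.15), was not called (limma adjusted p = 0.927). Without WT ethanol library 2 the LKO response was called (−3.31, limma adjusted p = 0.0241), while the WT response was −0.89 and the difference between them −2.42, neither called. Without WT control library 3 these were −2.27 and −1.04, neither called. Over both genotypes the call held in all 16 fits that left out 1 library, with differences from −2.79 to −2.10. Among libraries 1 and 2 the difference was −3.60 and among libraries 3 and 4 it was −1.26, where the WT livers alone gave 0.45. Sphk2 overlaps Dbp on the opposite strand.

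By genotype, none of the 9 members was called for ethanol in WT, where 4.18% of all genes were, or in LKO, where 0.425% were. Unadjusted limma p-values under 0.05 were found for 2 members in WT, Per2 and Per3, and for 3 in LKO, Clock, Dbp and Per3, against 19.7% and 9.19% of all genes. By voom, 0 of 10 were called in either genotype, against 2.46% of genes in WT and 0.361% in LKO. In WT, the values of control and ethanol libraries were separate for Npas2 alone of the 10, which was higher on ethanol, as were 5.62% of all kept genes without overlap. In LKO they were separate for 5 of 10, with Arntl, Clock and Npas2 higher and Nr1d2 and Dbp lower on ethanol, where 12.3% of all kept genes had separate groups, 8.15% higher and 4.14% lower. The smaller number of separate genes in WT was not tested against that in LKO, and both WT groups contain a library that differs from the rest.

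Between genotypes, no clock gene was called in the fit described above. The 2 fits with array weights each called 1 on the control diet, where they called 260 and 438 of 11298 genes. They called up to 3 on ethanol, where the fit that called 3 called 3465 of 11298 genes. On the control diet voom called 0 of 10 members, against 0.00694% of genes. By limma 0 of 9 were called, against 0.00885% of all genes, with Clock and Cry1 at unadjusted p under 0.05 (3.45% of all genes). Both were lower in LKO in every library, Clock at 1.72 to 2.52 FPKM against 2.70 to 6.16 FPKM in WT, and Cry1 at 2.16 to 4.24 FPKM against 4.42 to 20.7 FPKM. The differences were −0.62 for Clock (SE 0.27) and −1.02 for Cry1 (SE 0.41), each with limma adjusted p = 1.0, and became −0.41 and −0.55 without WT control library 3, with neither then at unadjusted p under 0.05. Without WT ethanol library 2, Clock, Cry1 and Per2 had unadjusted limma p of 0.00478, 0.0183 and 0.0449, and without both libraries Clock and Per2 had 0.0174 and 0.0141, none of them called. These fits called 4 of 11170 and 1 of 11121 genes in this comparison. Their shares of all genes at unadjusted p under 0.05 were not worked out, so these p-values cannot be set against all genes. Without overlap, 7.64% of all kept genes were lower in LKO in this comparison. On the ethanol diet 0 of 9 members were called, against 0.0797% of all genes by limma and 0.0416% by voom. None had an unadjusted p under 0.05 by limma, where 11.9% of all genes did, and the groups overlapped for all 10 members and were separate for 2.69% of all genes. Without WT ethanol library 2, Per1 was at −1.05 and reached an unadjusted p under 0.05 by limma, with adjusted p = 0.264, in a fit that called 23 of 11170 genes. The ethanol response differed between genotypes for 0 of 9 members by the interaction term, as for 0.0% of all genes, and voom called 0 of 10 and 0.0% as well. Cry1 alone had an unadjusted p under 0.05 there by limma (3.2% of all genes), with a difference of 1.26 (SE 0.58, limma adjusted p = 0.927). It was 0.79 without WT control library 3 and 0.57 without both libraries, with unadjusted limma p of 0.0991 and 0.176. Dbp had unadjusted limma p of 0.0417 in the interaction without WT ethanol library 2 (−2.42). With a term for the side of the principal component, also without that library, Dbp (−2.29) and Cry1 (1.14) had 0.0486 and 0.0314. None of these was called, in fits that called 0 of 11170 genes there. Of the 3 carriers of the AU-rich heptamer, Clock was at −0.62, Nr1d1 at 0.79 (SE 0.65) and Nr1d2 at 0.15 (SE 0.49) on the control diet, and at 0.06, 0.01 and 0.17 on ethanol, none called. Without WT control library 3 the values of Nr1d1 and Nr1d2 on the control diet were 0.38 and −0.24. The ethanol values average opposed differences. Among libraries 1 and 2 Clock was at 0.349, Nr1d1 at 1.054 and Nr1d2 at 1.419, and among libraries 3 and 4 they were at −0.229, −1.035 and −1.088. The comparisons between genotypes and between diets share groups, so they are not independent.

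The order of the members by mean level changed between groups. In LKO control livers Dbp was first at 49.1 FPKM, followed by Nr1d2 at 20.5 and Per1 at 11.9 FPKM. In LKO ethanol livers Nr1d2 was first at 10.5 FPKM, then Per2 at 7.99 and Per1 at 6.75 FPKM, and Dbp was seventh of 10 with a mean of 4.76 FPKM. In WT control livers the order began with Dbp (27.4), Nr1d2 (20.03) and Per1 (16.1 FPKM), whose ranges overlapped, and in WT ethanol livers with Per1 (12.5), Dbp (11.6) and Nr1d2 (11.5 FPKM), which also overlapped. Arntl and Npas2 were the lowest of the 10 in all 4 groups. Neighbours in the order overlapped in their ranges in every group except for the step from Arntl to Npas2, in all 4 groups, and the steps from Dbp to Nr1d2, Nr1d2 to Per1, Per2 to Cry1 and Clock to Arntl in LKO control.

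WT control library 3 lay outside the range of the rest of its group for all members but Per1. Against the other 3 WT control libraries it was high for Arntl (7.19 against 0.289 to 0.379 FPKM), Clock (6.16 against 2.70 to 3.20), Npas2 (0.116 against 0.0124 to 0.0227) and Cry1 (20.7 against 4.42 to 5.38). It was low for Nr1d2 (7.55 against 23.2 to 25.8 FPKM), Dbp (3.51 against 23.4 to 57.7), Nr1d1 (1.297 against 3.48 to 11.7), Per2 (7.75 against 11.6 to 20.7) and Per3 (4.08 against 11.4 to 20.95). Its depth, 24364215 reads, and its mitochondrial share, 4.05%, lay within the range of the other libraries. Without it, 5 of 9 members were called for ethanol over both genotypes by limma: Arntl (0.91) and Clock (0.70) rose, and Nr1d2 (−1.14), Per3 (−1.49) and Dbp (−2.79) fell. That fit called 6.68% of all genes. Because this library was noticed through its clock gene values, the added calls are not independent support. Arntl, moreover, passed the filter of that fit only through ethanol libraries. Without both WT control library 3 and WT ethanol library 2, where the same held for Arntl, 5 of 9 were called over both genotypes (18.6% of all genes). In that fit 2 were called in WT, Arntl and Clock (7.83%), and 3 in LKO, Arntl, Clock and Dbp (3.53%). In the accessory gene Nfil3, a repressor at D-boxes that was singled out after its values were seen, WT control library 3 stood at 24.2 FPKM against 2.42 to 6.04 FPKM in the other 3 of its group.

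**Figure D3:**
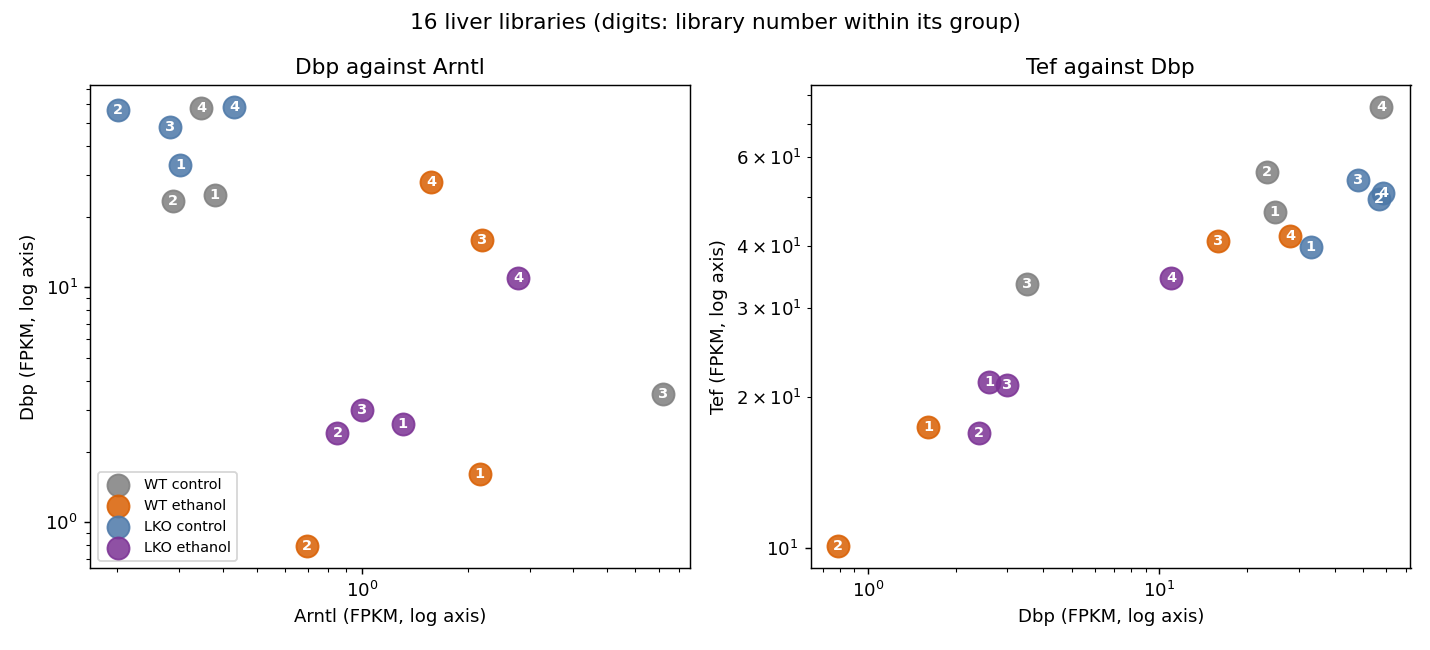
Dbp against Arntl (left) and Tef against Dbp (right) in FPKM on log axes, each point 1 of the 16 libraries, coloured by group and marked with its number. The 7 control libraries other than WT control library 3 sit at upper left, with Arntl at 0.201 to 0.432 FPKM and Dbp at 23.4 to 58.6 FPKM, while Tef rises with Dbp over all groups.

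Between libraries within groups, the test of opposed movement of the loop's arms could not decide. Values were permuted only within groups of at most 4 libraries. Most of the Arntl spread lay in WT control library 3 (7.19 against 0.289 to 0.379 FPKM in the rest of its group), so a small p was hardly within reach. Over 15 libraries, without WT ethanol library 2 and with group means removed, Arntl and Dbp had Pearson r = −0.50 (permutation p = 0.239, adjusted over 3 pairs 0.359) and Spearman rho = −0.25 (permutation p = 0.403, adjusted 0.572). Arntl and Nr1d1 had r = −0.41 (permutation p = 0.2, adjusted 0.359) and rho = −0.25 (permutation p = 0.412, adjusted 0.572), and Arntl and Npas2 r = 0.05 (permutation p = 0.89) and rho = 0.16 (permutation p = 0.572). Leaving out the 2 libraries farthest in Arntl, WT control 3 and LKO ethanol 4, gave r = −0.41, −0.34 and 0.08. Those values kept the group means of all 15 libraries, so WT control library 3 still weighed on them. Without WT control library 3 alone, and with group means taken anew, the r of Arntl with Dbp was 0.28. That with Nr1d1 was then −0.05 and that with Npas2 was −0.47, so the sign for Dbp and Npas2 turned without that library. The 2 settings differ in centring and cannot be set against each other. With the means of the 2 sides of the principal component also removed, r was −0.72 for Dbp, −0.74 for Nr1d1 and −0.13 for Npas2 (permutation p = 0.624, 0.325 and 0.656). The permutation then only swapped the 2 libraries of a block. Swapping WT control libraries 3 and 4, which carry most of the Arntl spread, mainly turns the sign of r. These p-values therefore cannot decide.

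The genes most like Dbp were ranked by Pearson r over the same 15 libraries, after removal of group means, among 10453 genes. Tef, which encodes a D-box activator related to DBP, came first (r = 0.95, and 0.95 without WT control library 3), followed by Tgfbr3l (0.93), Telo2 (0.92), Map2k6 (0.90) and Pcsk4 (0.90). Among the members, Nr1d1 stood nearest to Dbp, at rank 6 (0.89), then Per3 at rank 45 (0.83), Per2 at rank 159 (0.77), Nr1d2 at rank 280 (0.73) and Per1 at rank 1270 (0.60). Clock (−0.70), Arntl (−0.50) and Cry1 (−0.32) were negative. Without WT control library 3 these were 0.89 for Nr1d1, 0.79 for Per1, 0.74 for Per3, 0.70 for Per2, 0.53 for Nr1d2 and −0.42 for Clock. Arntl and Cry1 then turned positive (0.275 and 0.337). The genes most like Arntl were Mreg (0.92), Rab11fip4 (0.92), Ddc (0.91), Cry1 (0.89) and Clpx (0.89). Without WT control library 3 these became 0.75, 0.14, 0.65, 0.72 and −0.02, so the likeness of Rab11fip4 and Clpx to Arntl rests on that library. The libraries share depth and the split between libraries 1 and 2 and libraries 3 and 4, and these values are descriptions.

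Genes of the accessory loop, which couple to the core clock, were lower on ethanol where they were called. Of 9 described here, 7 passed the filter, and 0 were called higher and 2 lower over both genotypes, where 7.78% of all genes were called and 3.19% lower, with a median difference of −0.67 against 0.02 for all genes. Tef dropped by 1.07 (limma adjusted p = 0.0255) and Hlf, another D-box activator of the same family, dropped by 0.93 (limma adjusted p = 0.0372). Hlf measured 10.6, 12.2, 13.3 and 19.7 FPKM in WT control and 4.96, 2.06, 6.74 and 7.26 FPKM in WT ethanol livers, without overlap, and the WT difference of −1.32 was not called (limma adjusted p = 0.0527). Cry2, Rora, Bhlhe40, Ciart and Nfil3 were not called.

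Tef, the gene most like Dbp, measured 46.7, 56.2, 33.6 and 75.6 FPKM in WT control, 17.4, 10.1, 41.0 and 41.8 FPKM in WT ethanol, 39.7, 49.6, 54.1 and 51.0 FPKM in LKO control and 21.4, 16.9, 21.1 and 34.5 FPKM in LKO ethanol livers. Like Dbp, Tef was lowest in WT control at library 3 and highest in LKO ethanol at library 4.

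Kinases and ubiquitin ligases that set the stability of PER and CRY proteins (Csnk1d, Csnk1e, Gsk3b, Fbxl21, Btrc and Fbxw11) were not called by limma in any of the ethanol comparisons, with 0 of 6 over both genotypes. Their median difference was 0.17. The nearest to the threshold was Fbxl21 at −0.49 (limma adjusted p = 0.0672).

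Among 8 liver output genes, 0 were called higher and 2 lower over both genotypes, against the same 3.19% of all genes lower. Cyp7a1, the rate-limiting enzyme of bile acid synthesis and a target of DBP, dropped by 2.40 (limma adjusted p = 0.00459), and Usp2, a ubiquitin protease with strong daily cycling, dropped by 1.76 (limma adjusted p = 0.00536). Cyp7a1 measured 143.7, 76.9, 53.2 and 70.1 FPKM in WT control and 2.98, 3.90, 15.3 and 18.6 FPKM in WT ethanol livers, a called difference of −3.19 (limma adjusted p = 0.0138). In LKO it measured 59.8, 67.7, 65.9 and 51.9 FPKM on the control diet and 18.4, 7.70, 8.51 and 106.5 FPKM on ethanol. LKO ethanol library 4, the library with the highest Dbp of its group, had the highest Cyp7a1 of the LKO livers, the groups overlapped, and the difference of −1.61 was not called (limma adjusted p = 0.445). Usp2 was called in LKO (−2.35, limma adjusted p = 0.0484), with 8.43, 13.3, 18.8 and 24.7 FPKM on the control diet and 0.893, 0.9195, 1.67 and 9.47 FPKM on ethanol, where library 4 alone reached the control range. Wee1, Noct, Nampt, Alas1, Por and Cyp2a5 were not called.

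**Figure D4:**
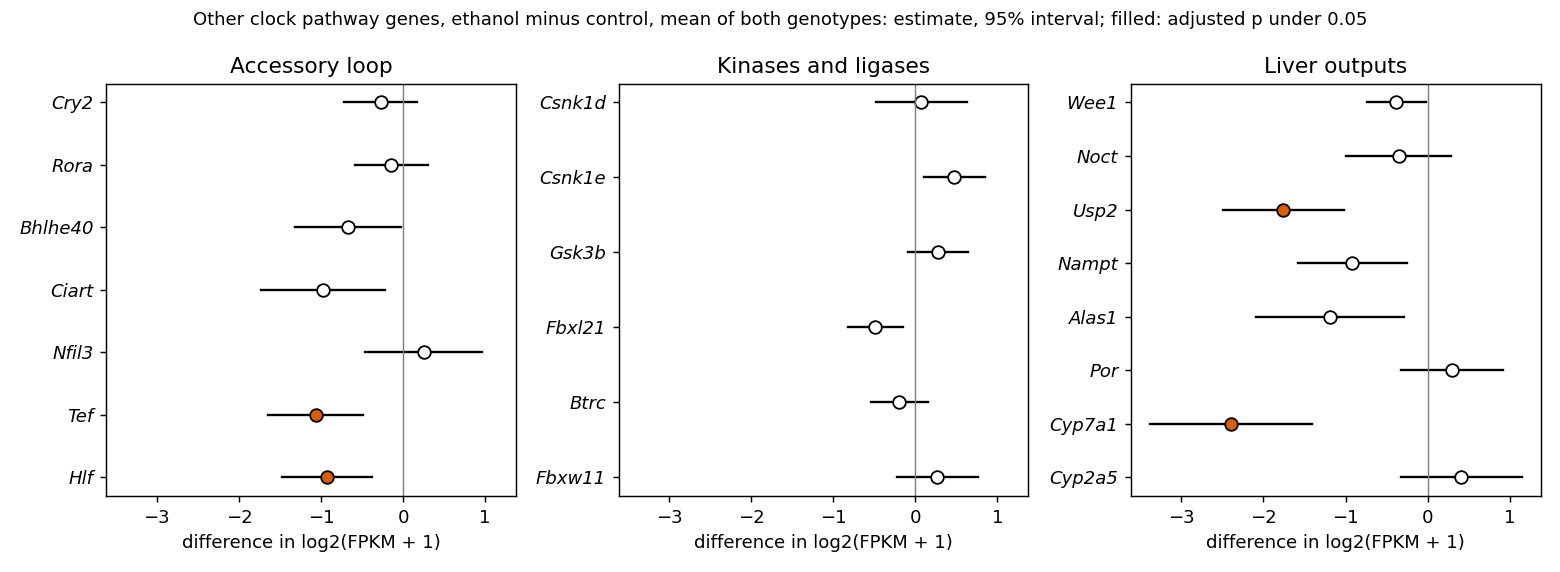
Ethanol minus control difference in log2(FPKM + 1), mean of both genotypes, with 95% intervals from limma, for accessory loop genes, clock kinases and ligases, and liver outputs that passed the filter. Filled points passed the adjusted threshold: Tef and Hlf among the accessory genes, none of the kinases and ligases, and Usp2 and Cyp7a1 among the outputs.

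Markers of liver cell types were compared in the same way over both genotypes. By limma, 0 of 6 hepatocyte, 0 of 6 Kupffer cell, 1 of 6 endothelial (Lyve1, 1.75), 1 of 6 stellate cell (Des, 0.57), 1 of 2 cholangiocyte (Sox9, 0.79) and 0 of 1 lymphocyte and neutrophil markers that passed the filter were called, all of these higher. The other members did not all follow them, with 2 of 6 endothelial markers above 0 and a median of −0.39, 4 of 6 stellate cell markers above 0 and a median of 0.03, and the other cholangiocyte marker below 0. In WT alone, the Kupffer cell marker Marco (1.71, limma adjusted p = 0.0379) and Des (0.93, limma adjusted p = 0.0296) were called higher, where 3 of 6 Kupffer cell markers were above 0 and 3 below, with a median of 0.08. In WT ethanol library 2, where Per2, Per3, Nr1d2 and Dbp had their lowest values of all 16 libraries, cholangiocyte markers summed to 74.98 FPKM against 10.8 to 28.6 FPKM elsewhere, and endothelial and stellate cell markers summed to 15.6 and 16.3 FPKM. Endothelial markers summed to 36.1 to 119 FPKM and stellate cell markers to 38.2 to 164 FPKM in the other libraries. Single genes carry 2 of these sums in WT ethanol library 2. Spp1 (66.35 FPKM) made up most of the cholangiocyte sum, where Krt7 and Epcam were also at their highest but Krt19 (0.706 FPKM) was not. Dcn (4.56 FPKM) set the stellate cell sum, where Lrat and Col3a1 were also at their lowest. Des (5.08 FPKM) was at its highest there, and Reln (4.78 FPKM) was also high. Of the defining markers, the neutrophil gene Ly6g was at 0 in 14 of the 16 libraries. The part of cell makeup in the clock gene differences was not tested.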

How the data were processed

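Mouse liver RNA was sequenced in 16 libraries, and the authors deposited a table of FPKM values, 1 per gene and library, for 35275 Ensembl genes. Per the submitters' processing notes, the tools were fastp, STAR 2.6.1, HTSeq and DESeq2, on build mm10 (GRCm38). Their settings, the annotation and the strand of counting are not given in the sources used here. Symbols came from GENCODE M21, which named 34490 IDs. For each gene and library the deposited FPKM move in even steps, the worth of 1 read, from which reads per gene were worked out. Among genes above 0 in at least 4 libraries, 100% of values lay within 0.1 of a whole read. Library totals are sums of these reads.

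The test was limma 3.58.1 (R 4.3.3) on log2(FPKM + 1), with a mean per group over 16 libraries, eBayes with trend, two-sided, after a filter of 1 FPKM in at least 4 libraries, and Benjamini-Hochberg adjustment over 11298 genes. On this scale, fold changes of low genes are understated. Of the 6 contrasts, the mean of both genotypes averages the WT and LKO ethanol responses. Correlations used 100000 permutations within groups (two-sided) and were adjusted over 3 pairs. The procedures were tested on simulated data. 

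Named were the 10 members, Zfp36l1, at most 3 called genes per list in a contrast, genes a statement on a list needs, and the 5 genes most like Arntl and Dbp (highest Pearson r), passing over predicted genes and pseudogenes. The members and lists were chosen with earlier results of these data known. Alternatives were another pseudocount, no filter, quantile and median-of-ratios scaling, array weights, a term for the side of the principal component, and leaving out each library. Voom on whole reads (at least 10 in at least 4 libraries), gene-by-gene array weights, and leaving out WT control library 3 with WT ethanol library 2 were added after the data had been seen. Fasting and glucocorticoid lists are in the closing section. A result for 1 gene of the accessory loop list and 1 of the kinase and ligase list is not reported here, and both lists were described without them.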

Additional observations from a re-analysis of the deposited data

Results flagged for a closer look

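In 6 of the 40 sets of 4 libraries (10 genes in 4 groups), or 15%, 1 library lay far from the other 3 by Dixon's ratio, where chance gives about 1 in 20. WT control library 3 accounted for 5 of them, with Arntl at 7.19 FPKM, Clock at 6.16, Npas2 at 0.116 and Cry1 at 20.7 FPKM above the others, and Nr1d2 at 7.55 FPKM below them. These 5 are 1 library and genes of 1 loop, so they are not independent. LKO ethanol library 4 gave the other, with Dbp at 10.99 FPKM against 2.41 to 3.01 FPKM.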

How the results depend on the processing

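Dbp over both genotypes kept its direction and its call in all alternatives run except without a filter (adjusted p = 0.0602), and ranged from −2.74 to −1.79 outside the fits that left out 1 library. Per3 was lost without a filter (adjusted p = 0.0884) and in 7 of the 16 fits without 1 library. Over both genotypes, 2 of 9 members were called, where 879 of 11298 genes were. Without a filter 1 of 10 was called, Npas2 (0.29, adjusted p = 0.0411), where 642 of 24377 genes were. The count was 4 with quantile normalization (1452 of 11298 genes called), 4 with median-of-ratios scaling (1340), 4 with array weights (2921) and 5 with gene-by-gene array weights (4147). It was 4 with a term for the side of the principal component (Clock, Dbp, Per1 and Per3), where 3652 of 11170 genes were called. Without both WT control library 3 and WT ethanol library 2 it was 5 (2073 of 11121 genes called), and without 1 library 1 to 5 (502 to 2290 genes called). Most of these fits thus called more genes of all kinds. In WT the count of 0 (472 genes called) became 1 with quantile normalization (932), 2 with gene-by-gene array weights (4334) and 2 without both libraries (871). In LKO the count of 0 (48 genes called) became 1 with median-of-ratios scaling (122), 3 with default and 3 with gene-by-gene array weights (1117 and 869) and 2 with the side term (1205). It was 3 without both libraries (393 genes called), and 0 to 2 without 1 library, with 2 only without WT ethanol library 2 (410 genes called). Between genotypes, 1 member was called on the control diet with each array-weight method (438 genes called by default and 260 by gene-by-gene weights). The gene-by-gene method called 3 on the ethanol diet (3465 genes called) and 1 in the interaction (506 genes called). The default array weights did not converge, and the gene-by-gene method was chosen after their results had been seen. For WT ethanol library 3 the default weight was 0.014, and the gene-by-gene weight was 5.0. These methods moved the median difference of all genes over both genotypes from 0.02 to 0.15 and 0.14.

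In the ethanol comparisons, signs turned for 4 genes whose differences were not called, and among libraries 3 and 4 alone also for Arntl, Nr1d2 and Dbp in WT. Differences between genotypes, none of them called, turned as well: without WT ethanol library 2 Clock (−0.22), Nr1d2 (−0.39), Nr1d1 (−0.39) and Per3 (−0.18) turned on ethanol and Per3 (−0.13) and Nr1d2 (−0.54) in the interaction, while without WT control library 3 Nr1d2 turned on the control diet (−0.24) and Arntl in the interaction (−0.07). Per1 in WT became 0.48 with gene-by-gene array weights. Per2 in LKO became 0.16 and 0.14 with gene-by-gene and default array weights, and ranged from −0.30 to 0.19 without 1 library. Cry1 in WT became 0.013 with gene-by-gene weights and 0.017 without both libraries, and over both genotypes 0.38, 0.30 and, with the side term, 0.012, with −0.18 to 0.19 without 1 library. Nr1d1 in WT became 0.52 and 1.41 with gene-by-gene and default weights and 0.18 with the side term, with −0.83 to 0.42 without 1 library, and 0.33 over both genotypes with default weights. The correlation of Arntl with Npas2 was −0.13 after removing group and side means and −0.47 to 0.32 without 1 library, and that with Dbp −0.69 to 0.28. The cause was not tested.

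Quantile and median-of-ratios scaling called 1452 (737 higher) and 1340 (662 higher) genes over both genotypes, against 879 (519 higher), gene-by-gene and default weights 4147 (3163 higher) and 2921 (2245 higher), and the side term 3652 of 11170 (2598 higher). In LKO, median-of-ratios scaling, gene-by-gene weights, default weights and the side term called 122, 869, 1117 and 1205 genes, against 48. In WT, quantile normalization and gene-by-gene weights called 932 and 4334, against 472. On the control diet the weights called 260 and 438 genes between genotypes, against 1, and the gene-by-gene weights called 3465 on ethanol, against 9, and 506 in the interaction, against 0. Quantile normalization was not run for Npas2. Depth limits Npas2 most, at 1 to 61 reads. No paired analysis was run, because the labels name no pairs and give no replicate numbers that groups share. The titles of some control and ethanol libraries carry consecutive numbers, and the labels do not say that these mark pairs.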

Other observations

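Genes that respond to fasting and feeding, and genes that respond to glucocorticoids, are listed here because both signals are known inputs to the liver clock. Of 8 fasting and feeding genes, 1 was called higher and 1 lower on ethanol over both genotypes by limma, where 7.78% of all genes were called, with a median difference of −0.99 against 0.02 for all genes. Srebf1, the activator of lipid synthesis that insulin induces, dropped by 2.09 (limma adjusted p = 0.00113), and all 8 ethanol libraries, at 5.22 to 35.1 FPKM, lay below all 8 control libraries, at 40.0 to 114 FPKM. Igfbp1, an insulin-repressed binding protein, rose by 1.81 (limma adjusted p = 0.0425), from 23.6 to 175 FPKM in control to 42.6 to 683 FPKM in ethanol livers, with overlap. In WT, Srebf1 (−2.27, limma adjusted p = 0.0133) and G6pc (−3.28, limma adjusted p = 0.0471) were called lower, and in LKO none of the 8 was called. Of 5 glucocorticoid-responsive genes, 1 was called in the same comparison, Tsc22d3 (GILZ), which dropped by 1.41 (limma adjusted p = 0.0024). Of the 5, 2 were above 0 and 3 below, with a median of −0.40. Feeding time and hormone levels are not given in the sources used here, and the part of either in the clock gene differences was not tested.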
